A study of Mus musculus with 24 samples.

Results

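A set of 9 genes that mark microglia or encode the complement starter C1q were followed across 24 RNA-seq libraries of the mouse nucleus accumbens (NAc): Cx3cr1, P2ry12, Tmem119, Csf1r, Aif1, C1qa, C1qb, C1qc and Trem2. They were chosen by name, and all 9 were found among the 52636 genes of the count files. Microglia are the resident macrophages of the brain. They depend on signalling through the receptor Csf1r, read neuronal signals through Cx3cr1 and P2ry12, and are the main source of C1q in the brain. C1q is assembled from chains of its A, B and C genes, binds surfaces and antibody complexes, and starts the classical complement cascade, which in the brain can tag synapses for removal by microglia.

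The mice were C57BL/6 and 50 days old, with 6 animals in each of 4 groups, the females and the males of a control group (Con) and of a stressed group (MSUS). MSUS stands for maternal separation combined with unpredictable maternal stress. The series description gives 2 h of separation per day over postnatal days 1 to 14, and the study's methods give another daily length and add unpredictable stress of the dams. Con litters were not handled in this way, and no group carried a transgene. Each library came from bilateral NAc of 1 animal, taken with a 1.5 mm tissue punch, and its RNA was depleted of ribosomal RNA without selection of poly(A) tails. The labels do not give the litter of an animal, so the p-values treat the 24 animals as independent. The estrous stages in the labels were given to some males and were missing for some females, and they were not used.

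Sense-strand gene counts came to between 39923666 and 70575745 read pairs per library, with a median of 53316153.5. Xist gave 56771 to 81737 counts in the 12 female libraries and 1 to 25 in the 12 male libraries. The share of uniquely mapped pairs in no annotated gene was 31.0% to 34.8% in Con females, 36.3% to 43.9% in MSUS females, 34.7% to 40.6% in Con males and 32.2% to 44.7% in MSUS males. It did not overlap between Con and MSUS females. The summed level of 10 markers of cortical excitatory neurons, cells that lie outside the NAc, ran from 322 to 1949 CPM (counts scaled to 1000000 pairs by TMM library size) in Con females, 163 to 892 in MSUS females, 212 to 1374 in Con males and 215 to 1958 in MSUS males.

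C1qa, C1qb and C1qc lay next to each other on the minus strand of chromosome 4, between positions 136880129 and 136898803 (GRCm38, GENCODE M21), a stretch of 18675 bp in the order C1qb, C1qc, C1qa. RefSeq promoter windows (GRCm38.p6), each from 250 bases before to 50 bases after a gene's start, were found for 6 members: P2ry12, C1qb, C1qc, Cx3cr1, Aif1 and Trem2. The windows of C1qb and C1qc are shown because these neighbours varied together across libraries. That of P2ry12 is shown because its correlations with the other members were weak over all 24 libraries, though higher values were reached within each library set. They are chr4:136886151-136886450, chr4:136892865-136893164 and chr3:59262936-59263235, all on the minus strand. Capitals mark the hexamer GAGGAA, or TTCCTC where it lies on the other strand, a core that the myeloid factor PU.1 and other ETS factors can bind.
C1qb: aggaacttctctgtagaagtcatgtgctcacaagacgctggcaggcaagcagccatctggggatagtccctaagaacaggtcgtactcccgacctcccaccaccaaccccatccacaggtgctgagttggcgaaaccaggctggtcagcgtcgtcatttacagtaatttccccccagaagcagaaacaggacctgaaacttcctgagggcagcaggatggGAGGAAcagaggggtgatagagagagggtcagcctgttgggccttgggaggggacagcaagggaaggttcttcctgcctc
C1qc: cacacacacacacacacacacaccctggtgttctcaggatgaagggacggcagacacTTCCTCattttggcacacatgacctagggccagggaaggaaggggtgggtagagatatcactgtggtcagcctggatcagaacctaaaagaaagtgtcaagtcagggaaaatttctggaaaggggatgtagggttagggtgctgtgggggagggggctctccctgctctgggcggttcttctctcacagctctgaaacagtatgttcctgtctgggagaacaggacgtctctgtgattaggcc
P2ry12: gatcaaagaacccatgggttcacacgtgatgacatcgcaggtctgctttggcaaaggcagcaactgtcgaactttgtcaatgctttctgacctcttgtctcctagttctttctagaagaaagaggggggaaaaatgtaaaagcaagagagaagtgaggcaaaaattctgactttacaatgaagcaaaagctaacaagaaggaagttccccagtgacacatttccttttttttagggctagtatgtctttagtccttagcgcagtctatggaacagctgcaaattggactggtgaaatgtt

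The hexamer, searched on both strands, was in 9289 of 32851 promoter windows of this length, or 28.3%. Among the members it was in 4 of 6, starting at base 221 in C1qb, 58 in C1qc, 244 in Aif1 and 211 in Trem2, counted from the 5′ end of the window. The windows of P2ry12 and Cx3cr1 did not hold these letters, although both hold the shorter run GGAA, which is not marked. Over 24 libraries with group means subtracted, Pearson's r with Csf1r and the C1q genes was 0.72 to 0.83 for Cx3cr1. For P2ry12 it was -0.0078 to 0.065. Whether the letters bear on these values was not tested. Binding of a factor to any window was not tested.

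All 9 are protein-coding genes, and the counts cover their exons. The other members were on chromosome 9 (Cx3cr1, 119901616 to 120069879), chromosome 3 (P2ry12, 59216272 to 59262871), chromosome 5 (Tmem119, 113793729 to 113800516), chromosome 18 (Csf1r, 61100598 to 61132149) and chromosome 17 (Aif1, 35170991 to 35176068, and Trem2, 48346401 to 48354147). Antisense pairs were 0.328% to 3.26% of the pairs counted at 7 members, 8.70% at Aif1 and 10.3% at Csf1r, whose end overlaps Hmgxb3 on the other strand. Cx3cr1 spans Gorasp1, Csrnp1 and Xirp1 on its own strand, and P2ry12 lies within Med12l on the other.

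Per kilobase of merged exons, the C1q chains and Csf1r stood highest. The mean over 24 libraries was 21.8 CPM per kilobase for C1qa and 19.8 for C1qb. Csf1r, the receptor for the survival factors Csf1 and Il34, stood at 14.6, C1qc at 11.5 and Cx3cr1, the receptor for the neuronal chemokine Cx3cl1, at 11.3. P2ry12, the ADP receptor that guides microglial processes to injury, stood at 9.71 and Tmem119, a membrane protein used as a microglia label, at 6.37. Aif1, which encodes the actin-binding protein Iba1, stood at 2.16 and Trem2, a receptor for lipids and lipoproteins that signals through Tyrobp, at 1.42. C1qa was above C1qb in 23 of 24 libraries, by 1.10-fold on average. C1qc and Cx3cr1 did not differ beyond their spread, with C1qc the higher in 17 of 24 libraries and a mean log2 ratio of 0.02 ± 0.080 (SD). Every other neighbour in this order was in the same order in 24 of 24 libraries.

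The order depended on the length used, and a further length was tried after the data were seen. For Trem2 the merged exons measured 4946 bases and the longest protein-coding transcript 1088 bases. The lengths were 1931 and 1203 bases for C1qc, 5774 and 4701 for Csf1r, and 1532 and 875 for Aif1. Per kilobase of the longest protein-coding transcript, C1qc stood at 18.5, Csf1r at 17.9, Trem2 at 6.46 and Aif1 at 3.77 CPM. C1qa and C1qb still led, and Trem2 came before Aif1 in 24 of 24 libraries. C1qc and Csf1r did not differ beyond their spread, with a mean log2 ratio of 0.047 ± 0.059 (SD) and C1qc higher in 19 of 24. Nor did Cx3cr1 and P2ry12, with 0.11 ± 0.146 and Cx3cr1 higher in 17 of 24. Tmem119, at 6.58, and Trem2 did not differ beyond their spread on this scale, with Tmem119 the higher in 14 of 24 libraries.

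**Figure D1:**
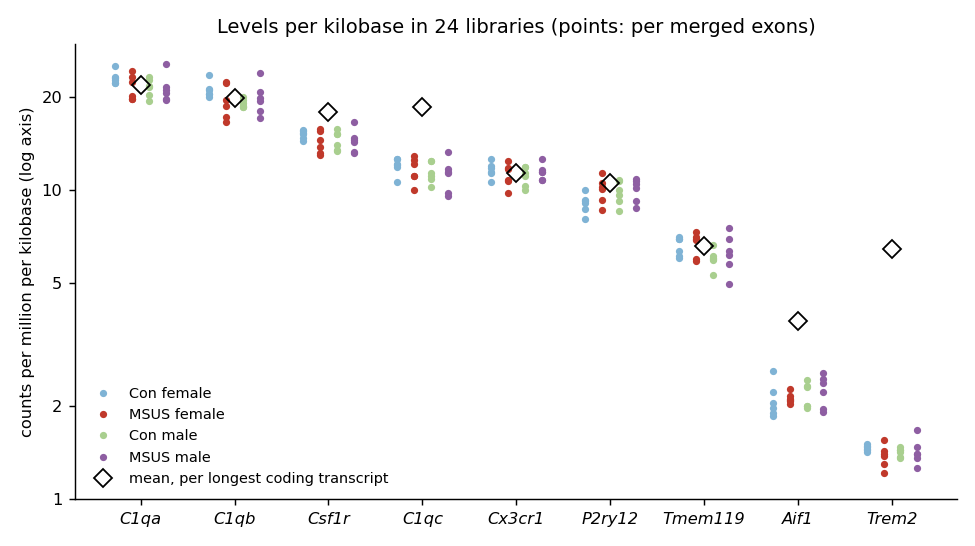
Level of each member in each of the 24 libraries, in CPM per kilobase of merged exons on a log axis, coloured by group. Diamonds give the mean over all libraries per kilobase of the longest protein-coding transcript, and they move most for Trem2, from 1.42 to 6.46.

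The question of the first comparison was whether MSUS changed these genes in females. None of the 9 passed the threshold, an adjusted p under 0.10 in edgeR's quasi-likelihood test, whereas 25.1% of all 20571 genes tested passed. An unadjusted p under 0.05 was reached by 1 of the 9 (32.7% of all genes), and DESeq2 called 0 of 9. The MSUS and Con values overlapped for all 9, and did not overlap for 7.29% of all genes. In bulk tissue, fewer microglia and less RNA per microglial cell cannot be told apart, so these are levels of the tissue.

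P2ry12 had the lowest p of the 9. It lay at 20.5, 23.3 and 25.5 CPM (lowest, median and highest of 6) in Con females and at 21.9, 25.8 and 28.9 CPM in MSUS females. Of the 6 MSUS females, 5 were above the Con median, and the groups overlapped. The log2 fold change was 0.15 (SE 0.066, 95% CI 0.0089 to 0.29), with an unadjusted p of 0.0389 and an adjusted p of 0.131 in edgeR's quasi-likelihood test. P2ry12 passed the threshold in edgeR without Con female replicate 1 (0.18, adjusted p = 0.0913) and without MSUS female replicate 2 (0.19, adjusted p = 0.0640), and over all 23 alternatives its adjusted p ran from 0.0640 to 0.905. Its log2 fold change ran from 0.091, with the cortical marker score as a covariate, to 0.40, with the share of pairs in no gene, and passed with neither. Within the libraries numbered 1 to 12 the log2 ratio of the means was 0.16, and within those numbered 13 to 24 it was 0.13.

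The other receptors had lower means in MSUS females, did not pass the threshold and overlapped between the groups. Csf1r lay at 82.9, 87.7 and 90.2 CPM in Con females and at 75.0, 81.4 and 90.7 CPM in MSUS females. Its log2 fold change of -0.08 had an SE of 0.051 and an adjusted p of 0.288 in edgeR. With the cortical marker score as a covariate it was -0.17 and passed (adjusted p = 0.0796, against a range of 0.0796 to 0.905 over all 23 alternatives). Cx3cr1 lay at 47.7, 52.3 and 56.6 CPM in Con females and at 43.9, 50.4 and 56.0 CPM in MSUS females, a log2 fold change of -0.05 (SE 0.058). Trem2 was held closely in Con females, at 7.01, 7.24 and 7.46 CPM, and spread wider in MSUS females, at 6.00, 6.85 and 7.69 CPM. Only 1 of 6 MSUS females was above the Con median of Trem2, and the log2 fold change was -0.08 (SE 0.062, adjusted p = 0.368 in edgeR). The difference in spread was not tested.

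Tmem119 and Aif1 had nearly equal means in the female groups. Tmem119 lay at 14.0, 15.3 and 16.3 CPM in Con and at 13.6, 15.998 and 16.9 CPM in MSUS females, a log2 fold change of 0.03 (SE 0.064). Aif1, the least counted member with 126 to 236 counts per library, lay at 2.83, 3.07 and 3.96 CPM in Con and at 3.11, 3.22 and 3.47 CPM in MSUS females. All 6 MSUS females were above the Con median of Aif1, and all lay below the highest Con female. The log2 fold change was 0.02 (SE 0.090).

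The C1q genes had lower means in MSUS females, and none passed. C1qa lay at 23.04, 23.8 and 26.1 CPM in Con and at 20.4, 22.1 and 25.1 CPM in MSUS females, a log2 fold change of -0.10 (SE 0.059, adjusted p = 0.278 in edgeR). C1qb lay at 21.7, 22.5 and 25.5 CPM in Con and at 17.96, 20.8 and 24.2 CPM in MSUS females, a log2 fold change of -0.12 (SE 0.076, 95% CI -0.28 to 0.05, adjusted p = 0.297). C1qc lay at 20.5, 23.4 and 24.4 CPM in Con and at 19.3, 22.4 and 24.7 CPM in MSUS females, a log2 fold change of -0.04 (SE 0.064). For both C1qa and C1qb, 2 of 6 MSUS females were above the Con median.

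Taking the 9 in females as a list, 3 had a higher and 6 a lower mean, with a median log2 fold change of -0.05 against -0.0027 over all genes tested. Their median absolute log2 fold change was 0.080, against 0.14 for all genes, and their median SE was 0.064, against 0.095. Without a covariate, the 95% CIs of the 9 lay between 0.823-fold and 1.23-fold. With the share of pairs in no gene as a covariate, no gene of the whole table was called in females, and the log2 fold changes of Tmem119 (0.28), Cx3cr1 (0.19), Csf1r (0.069), C1qa (0.10), C1qb (0.083), C1qc (0.14) and Trem2 (0.043) were above 0 and that of Aif1 below (-0.19). Its part in these values was not tested further. With the spliced share as a covariate the log2 fold change of Tmem119 was 0.34, and it did not pass.

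**Figure D2:**
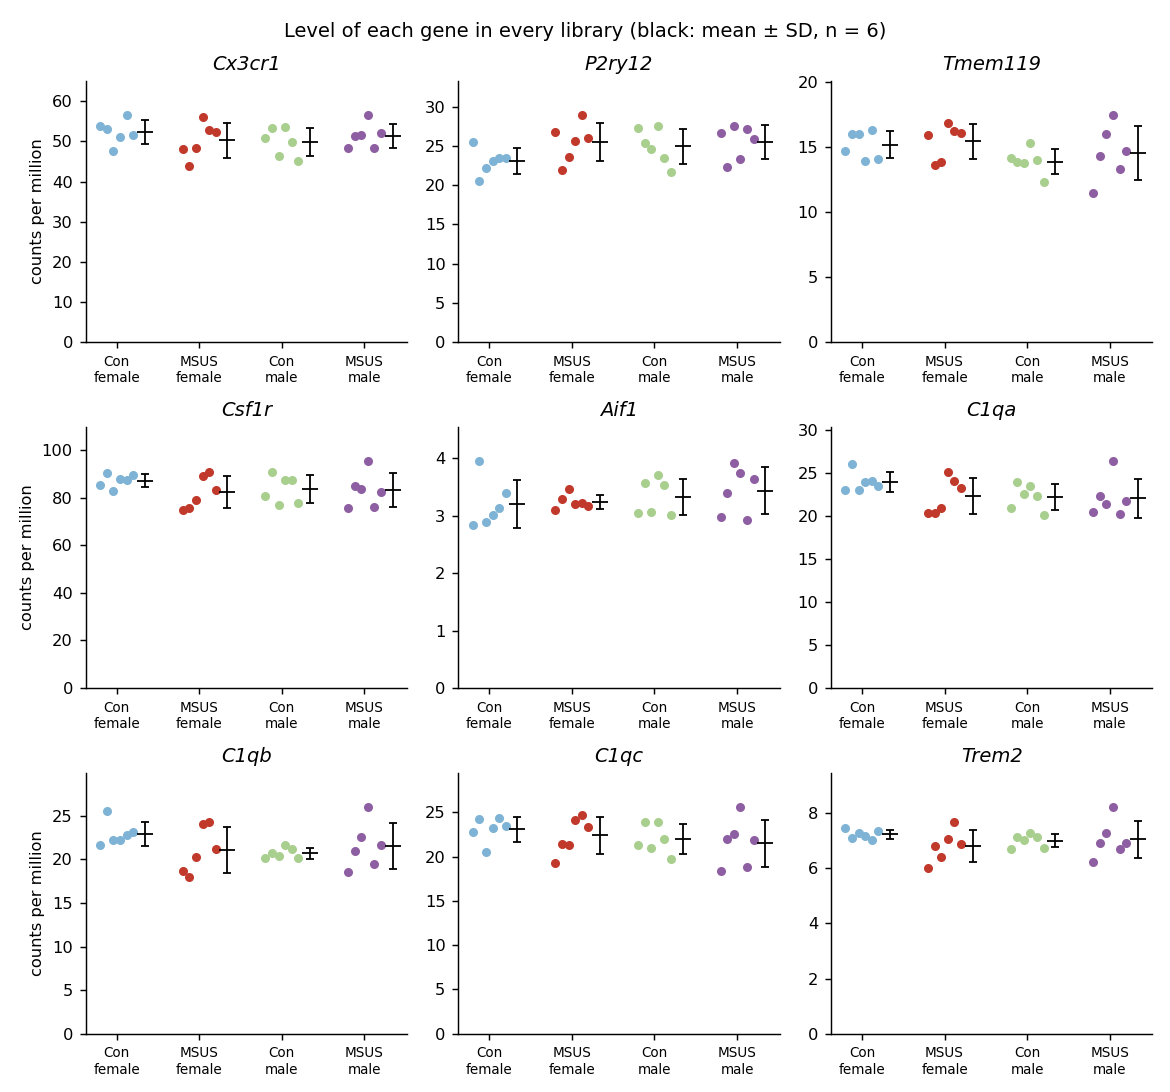
Level of each member in CPM (linear axes), 1 panel a gene, with 1 point an animal, coloured by group, and the group mean ± SD (n = 6) in black. Con and MSUS values overlapped for all 9 genes in both sexes, and the Con female values of C1qb all lay above the Con male values.

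In males the same comparison called 0 of 9 members in edgeR, 0% of 20691 genes being called, and DESeq2 called 0 of 9. None of the 9 had an unadjusted p under 0.05 (0.923% of all genes), and the smallest was 0.416, for C1qb. The log2 fold changes ran from -0.03 for C1qc to 0.07 for Tmem119, and their 95% CIs lay between 0.869-fold and 1.198-fold. C1qb lay at 20.1, 20.5 and 21.6 CPM in Con males and at 18.6, 21.3 and 26.0 CPM in MSUS males. Tmem119 lay at 12.3, 13.9 and 15.3 CPM in Con males and at 11.5, 14.5 and 17.4 CPM in MSUS males. Both genes spread wider in MSUS males, and the groups overlapped for all 9 members (0.0435% of all genes did not overlap). MSUS male replicate 4 held the highest value of its group for 7 of the 9 members, all but P2ry12 and Aif1, and MSUS male replicate 1 the lowest for 6.

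Males and females were compared within each group. In Con animals 7 of the 9 had higher means in females. The test called 0 of 9 in edgeR, where 2.64% of 20641 genes passed and 0.799% passed with a higher mean in females. An unadjusted p under 0.05 was reached by 3 of 9 (17.8% of all genes). DESeq2 called 1511 genes over the whole table, more than the 544 of edgeR, and among them 1 of the 9 members. That member was C1qb, which lay at 21.7, 22.5 and 25.5 CPM in Con females and at 20.1, 20.5 and 21.6 CPM in Con males. It was the only member whose values did not overlap between the sexes, as was so for 2.03% of all genes, although its lowest female and highest male values, 21.656 and 21.6387 CPM, nearly touched. The log2 fold change was 0.16 (SE 0.043, 95% CI 0.065 to 0.25), or 1.12-fold, with an unadjusted p of 0.00278 and an adjusted p of 0.101 in edgeR's quasi-likelihood test. DESeq2 gave 0.15 with an adjusted p of 0.0489, and edgeR on counts taken without regard to strand gave 0.18 with 0.0711, against a range of 0.0489 to 1 over all 23 alternatives. Without Con female replicate 2, which held the highest value of C1qb, the log2 fold change was 0.11 (adjusted p = 0.198 in edgeR). Within the libraries numbered 1 to 12 the log2 ratio of the means was 0.11, and within those numbered 13 to 24 it was 0.18.

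Tmem119 and C1qa were the other members with a low unadjusted p between Con females and males. Tmem119 lay at 14.0, 15.3 and 16.3 CPM in Con females and at 12.3, 13.9 and 15.3 CPM in Con males, a log2 fold change of 0.14 (SE 0.060, adjusted p = 0.247 in edgeR). C1qa lay at 23.04, 23.8 and 26.1 CPM in Con females and at 20.1, 22.5 and 24.03 CPM in Con males, a log2 fold change of 0.12 (SE 0.051, adjusted p = 0.252). All 6 Con females were above the Con male median for both genes, and the sexes overlapped. P2ry12 and Aif1 were the members with lower means in Con females, with log2 fold changes of -0.11 (SE 0.068) and -0.05 (SE 0.099).

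In MSUS animals no member differed between the sexes past the threshold. The test called 0 of 9 in edgeR (0.135% of 20714 genes passed, and 0.0386% with a higher mean in females), 0 of 9 had an unadjusted p under 0.05 (7.29% of all genes), and DESeq2 called 0. The log2 fold changes, female over male, ran from -0.09 for Aif1 to 0.09 for Tmem119. The groups overlapped for all 9 members (0.642% of all genes did not overlap), and that of C1qb was -0.03 (SE 0.092). MSUS females held Aif1 at 3.11, 3.22 and 3.47 CPM, all 6 below the MSUS male median of 3.52 CPM and within the male range of 2.92 to 3.93 CPM.

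The difference between the MSUS effects in females and males was tested as an interaction over all 24 animals. It called 0 of 9 members in edgeR, where 0% of 21500 genes passed, 0 of 9 had an unadjusted p under 0.05 (18.7% of all genes), and DESeq2 called 0 of 9. C1qb had the lowest adjusted p, with an interaction of -0.18 on the log2 scale (SE 0.11, adjusted p = 0.335 in edgeR). The interaction of P2ry12 was 0.12 (SE 0.099), and the 95% CIs of the 9 lay between -0.40 and 0.32. With the share of pairs in no gene as a covariate the interaction of C1qb was 0.00050, and those of all members but P2ry12 turned direction. The comparisons share groups, so their values stand side by side and are not separate evidence: C1qb was -0.12 for MSUS in females, 0.06 for MSUS in males, 0.16 between Con sexes and -0.03 between MSUS sexes.

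**Figure D3:**
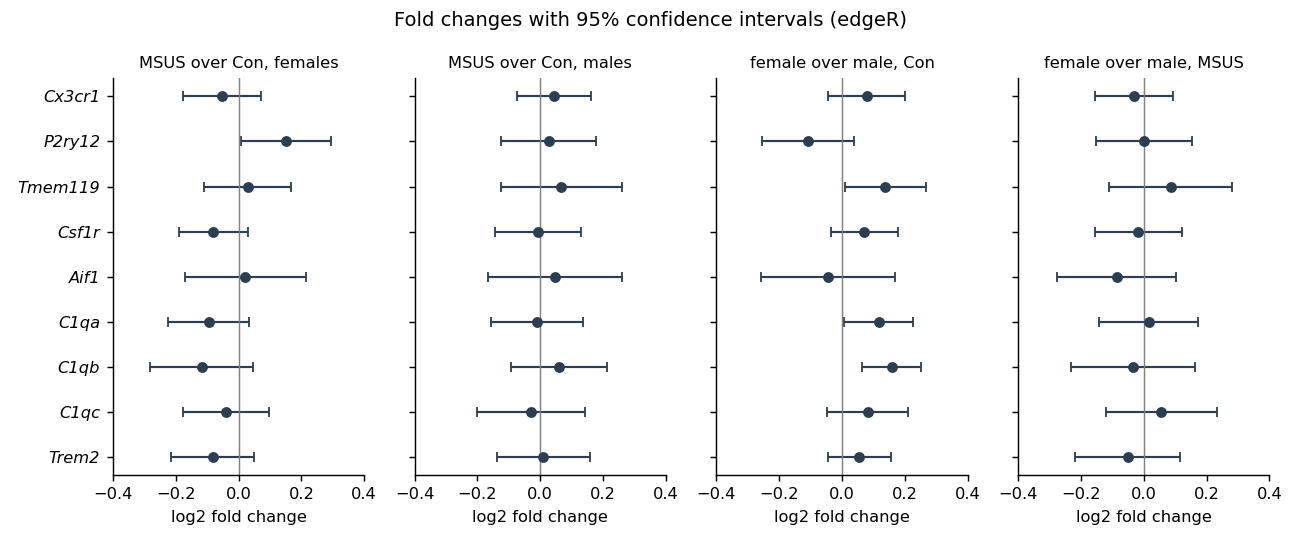
Log2 fold change of each member with its 95% confidence interval in the 4 comparisons of groups (edgeR). The points lie between -0.12 and 0.16, and the intervals of P2ry12 in females and of Tmem119, C1qa and C1qb between Con sexes lie above 0.

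Within groups, 8 of the members varied together from animal to animal. The correlations of P2ry12 with them were weak over all 24 libraries. They reached higher values within each library set, where their range still began and ended below that of the other pairs. Over the 24 libraries, with group means subtracted from log2 CPM, the 36 pairs of members had Pearson's r between -0.22 and 0.92 with a median of 0.67, and 34 were above 0. For 26 pairs the adjusted p of a two-sided permutation test was under 0.05, adjusted over the 36 pairs (25 by Spearman's rho). The closest pair was Csf1r and C1qc, with r = 0.92 and rho = 0.92, and an unadjusted permutation p of 1e-05, the smallest that the resamples can give. Among the C1q genes r was 0.87 for C1qa with C1qb, 0.87 for C1qa with C1qc and 0.83 for C1qb with C1qc, and each of these pairs had an adjusted permutation p under 0.05. Leaving out the 2 libraries farthest from the median of the gene on the x axis lowered the median r of the 36 pairs to 0.59.

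P2ry12 took part in 8 of the pairs, with r between -0.22 and 0.38, a median of 0.049, and 0 with an adjusted permutation p under 0.05 (the smallest was 0.129). The 28 pairs without it had r between 0.38 and 0.92 with a median of 0.73. P2ry12 also differed by library number, which the labels give without saying what it marks. Its mean log2 CPM in libraries 13 to 24 was below that in libraries 1 to 12 by 0.10 (a difference of -0.10), lower in all 4 groups. C1qc (0.11), C1qa (0.09) and Csf1r (0.08) were higher in libraries 13 to 24 in 4 of 4 groups. The pairs of P2ry12 had r of -0.28 to 0.57 within libraries 1 to 12 and 0.14 to 0.67 within libraries 13 to 24. In these sets of 12 libraries the 28 pairs without it had r of 0.34 to 0.92 and 0.35 to 0.96. In both sets the highest r of P2ry12, with Cx3cr1, was above the 0.38 over all libraries. The median over all 36 pairs was 0.55 and 0.72 within the sets, and the C1q pairs had r of 0.79 to 0.89 and 0.75 to 0.95.

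**Figure D4:**
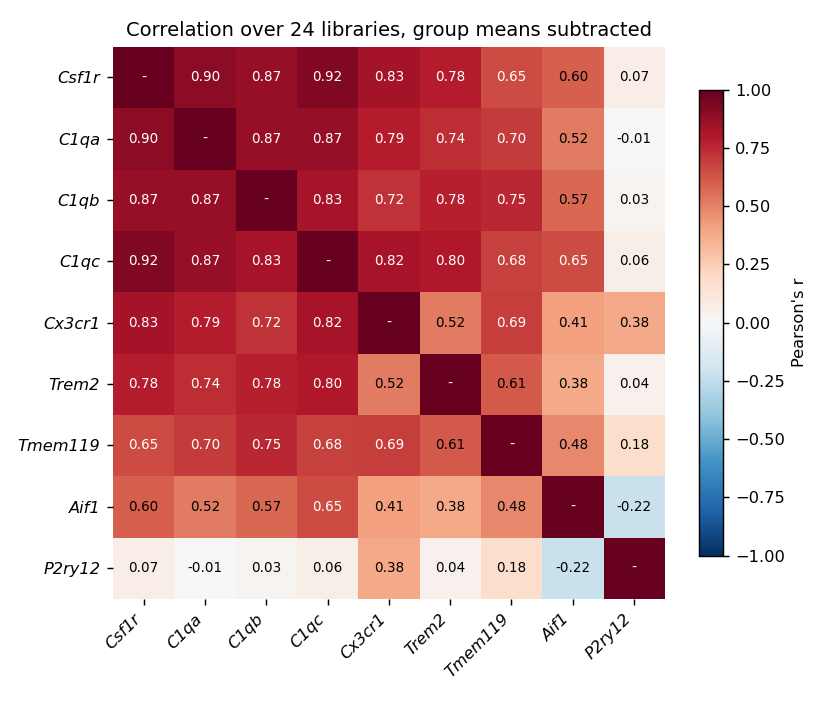
Pearson's r between each pair of members over 24 libraries, on log2 CPM with group means subtracted, on a colour scale from -1 to 1. The pairs among 8 members lie between 0.38 and 0.92, and the 8 pairs with P2ry12 between -0.22 and 0.38. The weak correlations of P2ry12 did not hold within both library sets.

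Of the genes whose levels went most closely with the members, 4 of 10 were other markers of homeostatic microglia. Of 14304 other genes with a mean of at least 100 counts, the 10 with the highest r to the mean standardized level of the 9 members over 24 libraries were Laptm5 (0.88), Selplg (0.87), Setd3 (0.85), Ftl1 (0.85), Rpusd1 (0.84), Krtcap2 (0.83), Itgb2 (0.82), Olfml3 (0.82), P2ry13 (0.82) and Vsir (0.81). The 99th percentile over all genes searched was 0.66. Laptm5, Selplg, Olfml3 and P2ry13 were in the list of homeostatic microglia genes, and Itgb2, the beta chain of complement receptor 3, in the complement list. Setd3, Ftl1, Rpusd1, Krtcap2 and Vsir were in none of the lists. Ftl1 encodes the ferritin light chain, which many cells make. The mean level of the 26 homeostatic genes had r = 0.87 with that of the members, the 14 ligands and partners, which include neuronal genes, 0.62, the complement list 0.33, the inflammatory list 0.34, border macrophages 0.13, astrocytes 0.01 and cortical neurons -0.27, as a description.

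The level of 8 members had a negative correlation with the share of pairs in no gene, and 4 passed by rank. Over 24 libraries with group means subtracted, Pearson's r was -0.56 for Tmem119 and for Csf1r, -0.54 for C1qc, -0.50 for Cx3cr1, C1qb and Trem2, -0.48 for C1qa, -0.21 for Aif1 and 0.10 for P2ry12. Spearman's rho was -0.41 for Tmem119, -0.54 for Csf1r and C1qc, -0.53 for Cx3cr1, -0.49 for C1qb, -0.47 for Trem2, -0.52 for C1qa, -0.17 for Aif1 and 0.16 for P2ry12. None of the 9 permutation p-values for r, adjusted over the 9 relations, was under 0.05, and the smallest was 0.0702. For rho, Cx3cr1, Csf1r, C1qa and C1qc had an adjusted permutation p of 0.0426. Without MSUS male replicates 1 and 6, the libraries farthest from the median share, r was -0.57 for Csf1r and -0.52 for Cx3cr1. Within libraries 1 to 12 it was -0.67 for Csf1r and -0.48 for Cx3cr1, and within libraries 13 to 24 it was -0.24 and -0.41. It was -0.58 and -0.037 for C1qc, -0.69 and -0.083 for Tmem119, -0.62 and 0.26 for Trem2 and -0.47 and 0.32 for Aif1 in these sets, so those relations did not hold within both. For P2ry12 it was -0.25 and -0.32, against 0.10 over all libraries. For C1qa it was -0.51 and -0.22, and for C1qb -0.61 and -0.28.

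The tissue carried the markers of homeostatic microglia in every library, and fewer counts of border macrophage markers. The summed level of the 26 homeostatic genes was 413 to 434 CPM in Con females, 389 to 467 in MSUS females, 402 to 451 in Con males and 411 to 463 in MSUS males. The summed level of 10 border macrophage genes was 26.1 to 29.7, 24.6 to 29.1, 27.0 to 31.3 and 24.5 to 31.0 CPM in the same order. Most of this sum was Stab1, with a mean of 19.4 CPM over 24 libraries. The sums hold different numbers of genes and are not per length, so they do not compare amounts of the cell types. Of their defining genes, Lyve1 had 5 to 28 counts and Pf4 3 to 26 counts per library, and the monocyte receptor Ccr2 2 to 22. The 16 blood genes, mostly haemoglobin by level, summed to 40.1 to 84.4 CPM in Con females, 31.0 to 58.9 in MSUS females, 45.3 to 211 in Con males and 50.8 to 113 in MSUS males.

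Among the 26 homeostatic genes, all of which were tested in females, 2 passed the threshold with MSUS, or 7.69% against 25.1% of all genes. Ptprc, the leukocyte phosphatase CD45, rose from 4.11 ± 0.524 to 5.08 ± 0.770 CPM (SD, n = 6 each), a log2 fold change of 0.31 (SE 0.11, adjusted p = 0.0682 in edgeR). DESeq2 called 3 of the 26. The count was 0 without Con female replicate 2 or MSUS female replicate 3, and 1 without Con female replicate 5 or 6 or MSUS female replicate 2 or 6.

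The share of ligands and partners of the members that passed in females in either direction was near that of all genes. Of 14 listed, 13 were tested, 0 rose and 3 fell, with a median log2 fold change of -0.09 over the list. That is 23.1%, where 25.1% of all genes passed in either direction and 11.9% fell. Il34, a neuronal ligand of Csf1r, fell from 41.2 ± 2.96 to 35.4 ± 3.22 CPM (log2 fold change -0.21, SE 0.063, adjusted p = 0.0363 in edgeR). Csf1, the other ligand of that receptor, stood at 14.8 ± 2.22 and 13.3 ± 0.637 CPM and did not pass (adjusted p = 0.257). Clu, a secreted chaperone that binds Trem2 and also inhibits the terminal complement complex, fell from 443 ± 31.4 to 379 ± 12.2 CPM (-0.22, SE 0.048, adjusted p = 0.0110). Sirpa, the receptor for the signal protein CD47, fell from 371 ± 17.7 to 338 ± 14.6 CPM (-0.13, SE 0.042, adjusted p = 0.0504). Cx3cl1, the ligand of Cx3cr1, stood at 786 ± 46.2 CPM in Con and 724 ± 47.4 CPM in MSUS females and did not pass (-0.12, SE 0.053, adjusted p = 0.152). Tyrobp, the signalling partner of Trem2, stood at 6.58 ± 0.555 and 6.22 ± 0.797 CPM (-0.08, adjusted p = 0.576).

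Of 39 other complement genes, 28 were tested in females, and 5 rose and 3 fell, or 28.6% against 25.1% of all genes. DESeq2 called 8 of them, 2 did not overlap between the groups, where 7.29% of all genes did not, and the count was 5 without MSUS female replicate 3. Cd46, a membrane regulator of C3b, rose from 5.50 ± 0.669 to 7.37 ± 1.00 CPM (0.43, SE 0.10, adjusted p = 0.0178 in edgeR), and Csmd3, a large neuronal protein with complement control domains, from 152 ± 17.3 to 186 ± 11.6 CPM (0.29, SE 0.072, adjusted p = 0.0188). Sez6l2, another neuronal protein with such domains, fell from 259 ± 26.9 to 215 ± 11.2 CPM (-0.27, SE 0.063, adjusted p = 0.0160), as did Clu, which is in this list too. None of these 4 is in the lists of microglia genes used here, and which cells gave their values was not tested. Of the cascade proper, whose 3 passing genes were named for that role after the values were seen, C4a rose from 3.91 ± 0.473 to 4.86 ± 0.321 CPM (0.32, SE 0.088, adjusted p = 0.0298), while its near-identical neighbour C4b stood at 21.9 ± 3.54 and 20.4 ± 3.04 CPM (-0.10, adjusted p = 0.612). Reads can be split between these copies, so both values are uncertain. Cfp, which stabilises the alternative pathway's convertase, rose from 9.18 ± 0.793 to 10.3 ± 0.552 CPM (0.17, adjusted p = 0.0816), and Masp1, a protease of the lectin pathway, fell from 5.59 ± 1.06 to 4.18 ± 0.639 CPM (-0.42, adjusted p = 0.0516). Cr1l, the remaining complement gene that passed, rose from 26.8 ± 1.81 to 29.3 ± 0.706 CPM (0.13, SE 0.044, adjusted p = 0.0547 in edgeR). C3, the component on which the pathways converge, had only 5 to 22 counts per library, and C9 and Cfd had 0 in all 24.

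The list of genes that disease-associated microglia raise held 7 that fell and 0 that rose among 19 tested of 22. That is 36.8%, where 25.1% of all genes passed in either direction and 11.9% fell. Cd9, a tetraspanin, fell from 25.6 ± 1.84 to 21.7 ± 0.631 CPM (-0.23, SE 0.048, adjusted p = 0.00883 in edgeR). The lysosomal proteases Ctsb (-0.19, adjusted p = 0.00883), Ctsd (-0.25, adjusted p = 0.00956) and Ctsl (-0.25, adjusted p = 0.0106) fell too, Ctsb from 330 ± 14.6 to 288 ± 11.1 CPM. Cathepsins and Cd9 are made by neurons, astrocytes and oligodendrocytes as well as microglia. In the same comparison 3 of 10 astrocyte, 6 of 10 oligodendrocyte, 3 of 12 endothelial and pericyte, 4 of 8 neuronal and 3 of 10 cortical neuron markers fell and 0 rose, where 11.9% of all genes fell, and 0 of 12 striatal projection neuron and 0 of 6 oligodendrocyte precursor markers passed (edgeR, with 0 and 1 at an unadjusted p under 0.05, and 0 and 1 by DESeq2). Their part in the Cd9 and cathepsin values was not tested. With the share of pairs in no gene as a covariate, 0 genes of any of these lists were called in females.

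Genes of inflammation did not pass in females. Of 25 listed, 14 were tested and edgeR called 0, where 25.1% of all genes passed, with 3 at an unadjusted p under 0.05 (32.7% of all genes) and 1 called by DESeq2. EdgeR's count was 1 without Con female replicate 2 or 3 or MSUS female replicate 4, and 2 without Con female replicate 5 or 6 or MSUS female replicate 1. The cytokines of activated microglia were near the floor, with 0 to 12 counts of Il1b, 0 to 4 of Tnf and 0 to 7 of Il6 per library. Of 7 border macrophage genes tested, edgeR called 0, against the same 25.1% of all genes, with 0 at an unadjusted p under 0.05 and 0 by DESeq2. Of the blood genes, 1 of 6 tested fell, where 11.9% of all genes did, the erythroid enzyme Alas2 (-0.55, adjusted p = 0.0867).

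**Figure D5:**
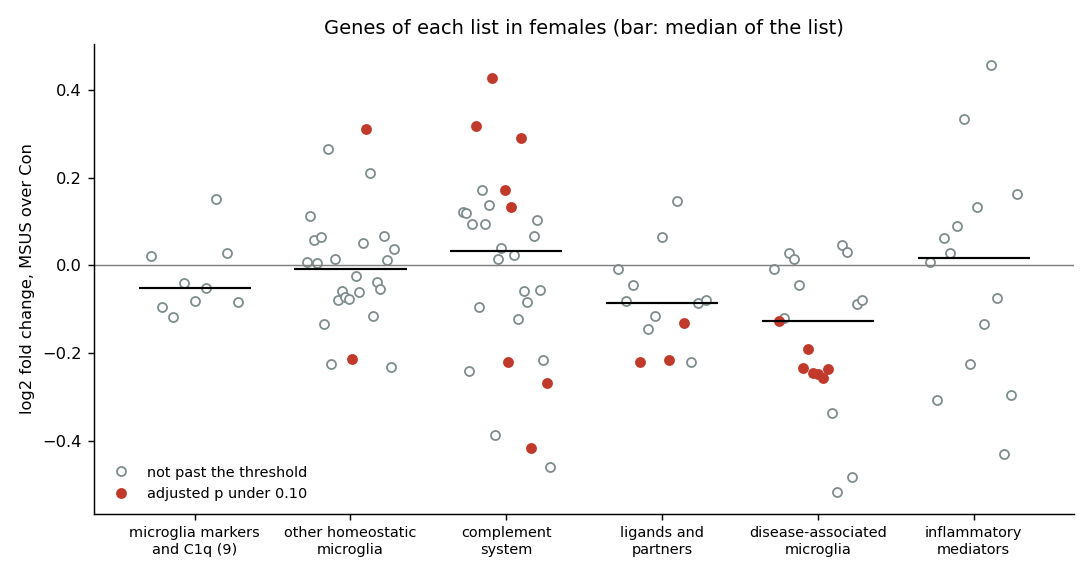
Log2 fold change, MSUS over Con in females, of every tested gene in 6 lists, with genes past the adjusted p threshold of 0.10 filled red, the others open, and the list medians as bars. The 9 members lie between -0.12 and 0.15 with none filled.

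In males edgeR and DESeq2 called 0 genes of every list. An unadjusted p under 0.05 was reached only by 3 of the 14 tested genes of the inflammatory list, where 0.923% of all genes reached it. The log2 fold changes of that list ran both ways, from -0.46 to 0.58. Other values in males were 0.02 for Clu (SE 0.065), 0.04 for Cd46 (SE 0.15) and 0.02 for Cd9 (SE 0.043). Between Con sexes, Cd46 was lower in females (5.50 ± 0.669 against 7.16 ± 0.542 CPM, -0.37, adjusted p = 0.0736 in edgeR), Cd59a, a blocker of the terminal complement complex, was higher (3.44 ± 0.353 against 2.51 ± 0.275 CPM, 0.46, adjusted p = 0.0678), and so was Ptgs2, the inducible cyclooxygenase that neurons also express (0.96, adjusted p = 0.0782). Between MSUS sexes, Cd9 was lower in females (21.7 ± 0.631 against 26.0 ± 0.981 CPM, -0.26, adjusted p = 0.0112), and so was the oligodendrocyte marker Opalin (-0.34, adjusted p = 0.00803).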

How the data were processed

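RNA-seq of the nucleus accumbens of 24 mice (6 per group) was used. The authors aligned read pairs with STAR 2.6.1b to mm10, using GENCODE M15, and deposited whole-number counts per gene in unstranded, forward and reverse columns; the reverse column, which holds the sense strand for this library kit, was analysed here (39923666 to 70575745 pairs per library). Gene names, positions and exon lengths came from GENCODE M21 (52489 of 52636 identifiers matched). Genes were filtered with filterByExpr (minimum count 10), scaled by TMM and tested in edgeR 4.0.16 (R 4.3.3) with the robust quasi-likelihood F test, per sex and per group as in the design, with Benjamini-Hochberg adjustment over all genes tested and a threshold of 0.10, as the study used. The estrous term of the study was left out because the stage labels were given to some males and missing for some females. The study reports equal numbers of high- and low-estrogenic females in each group and put the stage in its female model. Log2 fold changes carry the SE from the F statistic. CPM are counts scaled to 1000000 pairs by TMM library size. A count below about 10 gives no usable precision, and p-values cover the spread between animals.

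Correlations used log2 CPM (prior count 2) with group means subtracted, and two-sided permutation tests with 100000 resamples (scipy 1.17.1). Replicate numbers were shared by the groups but did not pair the animals. The code was tested on simulated data. The alternatives were DESeq2 1.42.0, its size factors, other filters, unstranded counts, a replicate block, the library set, 3 covariates, 1 fit of all animals, a threshold of 0.05, and leaving out each animal. The spliced share among the covariates came from the alignment statistics that the study gives per library. Named genes were all 9 members, up to 4 passing genes per list and comparison with the smallest p, Cx3cl1, Il34, Csf1 and Tyrobp, and the 10 genes most like the members. The other complement genes that passed in females were named after the values were seen. The members and the gene lists were chosen with earlier results of these data known. Some listed genes are not reported here by name.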

Additional observations from a re-analysis of the deposited data

Results flagged for a closer look

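In 36 sets of values (9 genes in 4 groups of 6), 3 had a highest animal whose gap to the next, divided by the range of the group, was above Dixon's 95% critical value of 0.625. Chance alone marks about 1 in 20 such sets. C1qa stood at 26.1 CPM in Con female replicate 2, with 24.1 CPM in the next animal (gap over range 0.660). C1qb stood at 25.5 CPM in the same animal, with 23.1 CPM in the next (0.627). C1qa stood at 26.4 CPM in MSUS male replicate 4, with 22.4 CPM in the next (0.658).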

How the results depend on the processing

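The number of members called in females, 0, was 1 with a replicate block (P2ry12, 0.15, adjusted p = 0.0695) and 1 with the cortical marker score (Csf1r), and 0 to 1 with an animal left out. Between Con sexes it was 1 in DESeq2 and 1 on unstranded counts (C1qb). The replicate numbers did not pair the animals (r of same-numbered animals -0.37 to 0.40), and the block changed no other call of a member. The other settings, and the leave-one-out fits of the other comparisons, gave 0.

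List counts in females were as follows. Homeostatic genes (2) were 5 on unstranded counts, 0 with the replicate block, 0 with the share of pairs in no gene, 0 with the spliced share (splice events per mapped pair), 0 at an adjusted p under 0.05, and 0 to 3 with an animal left out. Complement genes (8) were 0 with either share, 3 with the cortical score, 5 at 0.05, and 5 to 8 with an animal left out. Ligands and partners (3) were 1 with the block, 0 with either share, and 2 to 4 with an animal left out. Disease-associated genes (7) were 0 with either share, 3 with the cortical score, and 5 to 8 with an animal left out. Inflammatory genes (0) were 1 in DESeq2, 1 with at least 10 counts in every animal, 2 on unstranded counts, 1 with the library set, and 0 to 2 with an animal left out. Over all genes in females 5156 were called, 0 with either share, 1837 with the cortical score, 3126 at 0.05, and 3102 to 5737 with an animal left out. The share of pairs in no gene did not overlap between the female groups, so it and the MSUS effect cannot be told apart. Between Con sexes 544 were called, 1511 by DESeq2, 1362 on unstranded counts, 338 without a filter, 62 in the fit of all animals, 44 with the cortical score, 32 at 0.05, 12 with the block, 11 and 10 with the shares, and 20 to 1395 with an animal left out. Between MSUS sexes 28 were called, 167 by DESeq2, 71 with the library set, and 14 to 64 with an animal left out. For the interaction 0 were called, 467 by DESeq2, and 0 to 3031 with an animal left out.

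Log2 fold changes of members that turned direction are given with the share of pairs in no gene and then with the spliced share. In females they were Cx3cr1 0.19 and 0.25, Csf1r 0.069 and 0.15, Aif1 -0.19 and -0.0084, C1qa 0.10 and 0.23, C1qb 0.083 and 0.23, C1qc 0.14 and 0.24, and Trem2 0.043 and 0.055. In males Trem2 was -0.0065 and -0.011. Between MSUS sexes they were Cx3cr1 0.021 and 0.027, P2ry12 -0.0062 and -0.024, Csf1r 0.043 and 0.052, C1qb 0.051 and 0.061, and Trem2 0.0031 and 0.011. For the interaction they were Cx3cr1 0.038 and 0.039, Tmem119 0.18 and 0.18, Csf1r 0.077 and 0.098, Aif1 0.044 and 0.12, C1qa 0.059 and 0.084, C1qb 0.00050 and 0.027, C1qc 0.18 and 0.21, and Trem2 0.033 and 0.033. Between Con sexes the spliced share alone gave P2ry12 0.028, Csf1r -0.049 and C1qc -0.00088. Between MSUS sexes P2ry12 was -0.00063 with the replicate block, and with the cortical score P2ry12 was -0.016, C1qa -0.054 and C1qc -0.012. The cause was not tested.

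With an animal left out, the values that crossed 0 ran from -0.012 to 0.092 for Aif1 in females. In males they ran from -0.011 to 0.063 for P2ry12, -0.052 to 0.022 for Csf1r, -0.069 to 0.016 for C1qa, -0.0034 to 0.10 for C1qb, -0.087 to 0.015 for C1qc and -0.042 to 0.046 for Trem2. Between MSUS sexes they ran from -0.064 to 0.011 for Cx3cr1, -0.035 to 0.047 for P2ry12, -0.042 to 0.036 for Csf1r, -0.020 to 0.082 for C1qa, -0.075 to 0.036 for C1qb and -0.084 to 0.0063 for Trem2. For the interaction they ran from -0.098 to 0.0066 for Tmem119, -0.070 to 0.043 for Aif1 and -0.053 to 0.031 for C1qc. Of all such fits of a member, 49 turned direction, 2 passed the threshold and 597 did neither.

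Without the 2 libraries farthest from the median, r of P2ry12 was -0.054 with Tmem119, -0.16 with Csf1r, -0.19 with C1qb, -0.10 with C1qc and -0.0026 with Trem2, and r of Aif1 with the share of pairs in no gene was 0.020. With DESeq2 size factors r of P2ry12 with C1qa was 0.0068. Per kilobase of the longest protein-coding transcript, a setting chosen after seeing the data, the levels were Csf1r 17.9, Aif1 3.77, C1qc 18.5 and Trem2 6.46 CPM, against 14.6, 2.16, 11.5 and 1.42 per merged exons. Depth limited Aif1 most, with 126 to 236 counts.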
